A study of Mus musculus with 2 samples.

Results

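The 43 genes described here encode the machinery that stores, docks, fuses and recovers synaptic vesicles at the nerve terminal. They were taken as a named list and matched by symbol among the 21938 protein-coding genes of GENCODE M21. All 43 matched. Chromatin opening at these genes was read from DNase-seq, in which the nuclease DNase I cuts accessible DNA and regions with many cuts are listed as peaks. The tissue was hippocampus, which the labels call a layer of hippocampus, from female mice of strain B6CASTF1/J, a first-generation cross of C57BL/6J and CAST/EiJ, at 8 to 10 months of age. There were 2 libraries, numbered biological replicates 1 and 2, and 2 biosamples were pooled for each. No agent, allele or control group is named in the labels, and whether the pools came from different animals is not stated, so the spread between the libraries may be technical. The tissue was measured in bulk, so fewer open cells and less opening per cell cannot be told apart.

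At a nerve terminal, synaptobrevin on the vesicle pairs with syntaxin and SNAP-25 on the plasma membrane to form the SNARE complex that drives fusion. Synaptotagmins bind calcium and trigger fusion, complexins hold and help the assembled complex, and NSF takes used complexes apart. RIM, Munc13, Bassoon and Piccolo proteins build the active zone where vesicles dock, synapsins tether the reserve vesicles, and vesicular transporters load the transmitter. Principal neurons of the hippocampus, the pyramidal and granule cells, release glutamate.

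A few promoter sequences to which the results below refer are shown first. Footprints are short stretches inside a peak that are cut less than their surroundings, as under a bound protein. Each sequence is the part of the highest promoter peak that both libraries share, up to at most 30 exon bases, from the mm10 (GRCm38.p6) reference and on the strand of the gene. Capitals mark bases that lay in footprints of both libraries. The mice carry a CAST/EiJ genome as well, whose own bases at these places were not analysed here. Rab3a at chr8:70754481-70754640, plus strand, had the highest promoter signal of the 43 genes, Syt1 at chr10:109010953-109011140, minus strand, is the main calcium sensor gene, Pclo at chr5:14514681-14514947, plus strand, had the largest share of bases in footprints of both libraries, and Dnm1 at chr2:32353309-32353480, minus strand, had the longest run. Syn1 at chrX:20920975-20921160, minus strand, holds a cyclic AMP response element. Syn3 at chr10:86498867-86499020, minus strand, stood among the most footprinted as well.
Rab3a: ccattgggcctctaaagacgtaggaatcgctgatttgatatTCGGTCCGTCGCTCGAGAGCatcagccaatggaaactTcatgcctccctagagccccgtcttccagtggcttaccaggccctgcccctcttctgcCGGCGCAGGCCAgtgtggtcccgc
Syt1: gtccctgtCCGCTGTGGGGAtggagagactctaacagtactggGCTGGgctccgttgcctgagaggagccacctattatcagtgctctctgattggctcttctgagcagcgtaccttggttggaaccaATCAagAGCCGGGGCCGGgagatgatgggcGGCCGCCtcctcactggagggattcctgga
Pclo: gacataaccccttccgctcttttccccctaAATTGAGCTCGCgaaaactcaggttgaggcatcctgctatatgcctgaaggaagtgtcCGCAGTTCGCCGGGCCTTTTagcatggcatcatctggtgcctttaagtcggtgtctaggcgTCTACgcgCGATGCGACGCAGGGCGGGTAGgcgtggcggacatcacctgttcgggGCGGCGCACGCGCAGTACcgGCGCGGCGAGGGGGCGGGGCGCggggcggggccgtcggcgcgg
Dnm1: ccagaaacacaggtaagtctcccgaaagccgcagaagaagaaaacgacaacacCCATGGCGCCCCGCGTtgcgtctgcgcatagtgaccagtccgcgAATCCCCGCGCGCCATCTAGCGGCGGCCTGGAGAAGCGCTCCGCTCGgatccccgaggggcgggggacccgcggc
Syn1: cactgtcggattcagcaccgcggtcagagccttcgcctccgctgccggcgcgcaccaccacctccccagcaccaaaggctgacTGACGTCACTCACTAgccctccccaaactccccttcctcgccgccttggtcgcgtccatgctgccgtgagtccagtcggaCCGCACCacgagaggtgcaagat
Syn3: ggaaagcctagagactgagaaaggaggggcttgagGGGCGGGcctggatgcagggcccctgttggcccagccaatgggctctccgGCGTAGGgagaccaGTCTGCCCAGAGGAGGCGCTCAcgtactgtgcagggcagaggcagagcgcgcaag

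A further set shows the places where the letters that the repressor REST binds lay in a peak. REST, the neuron-restrictive silencer factor, binds an element near many neuronal genes and keeps them silent in other cells. Capitals mark the match, which was searched on both strands as CAGCACC, any 2 bases and GGACAG with at most 1 mismatch over these 13 letters. The Syn1 match lies at chrX:20921127-20921155 with its margins, minus strand, the Syp match at chrX:7638732-7638760, plus strand, and the Slc17a6 match at chr7:51621857-51621885, minus strand. The Snap25 pair lies at chr2:136714283-136714311 and chr2:136714333-136714361, plus strand.
Syn1: tcggattCAGCACCGCGGTCAGagccttc
Syp: cgcgctcCAGCACCGTGGACAGagcccgg
Slc17a6: agcatttCAGGACCACGGACAGaggaagc
Snap25 first match: gggagctCAGCACCCTGGACAGgagtgct
Snap25 second match: gacctttCAGCACCGCGGACAGcgatccg

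A gene was called open when, in both libraries, a peak came within 500 bp of at least 1 annotated start. By this rule 37 of the 43 vesicle release genes were open (86.0%), against 12982 of all 21938 protein-coding genes (59.2%). Syt2 and Cplx2 had a promoter peak in replicate 2 only, and Cplx3, Rims3, Sv2b and Slc17a8 had one in neither library. A gene's promoter signal is that of its highest promoter peak, in the authors' linear unit. Replicate 1 listed 98902 peaks and replicate 2 listed 130199, and within 0.05 of a step every signal was a whole multiple of 0.00606 in replicate 1 and of 0.00795 in replicate 2. The median peak held 99 steps in replicate 1 and 73 in replicate 2, and the lowest peak 8 and 5 steps. Of 10 markers of hippocampal neurons all 10 were open, as were 6 of 7 of astrocytes, 5 of 7 of oligodendrocytes, 2 of 9 of GABAergic interneurons, 1 of 6 of microglia and 1 of 6 of endothelial and mural cells. Open promoters thus included all listed markers of hippocampal neurons and most of those of astrocytes and oligodendrocytes, but few of microglia. Over all protein-coding genes the open share was 59.2%. The part of glia in the values below was not tested.

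**Figure D1:**
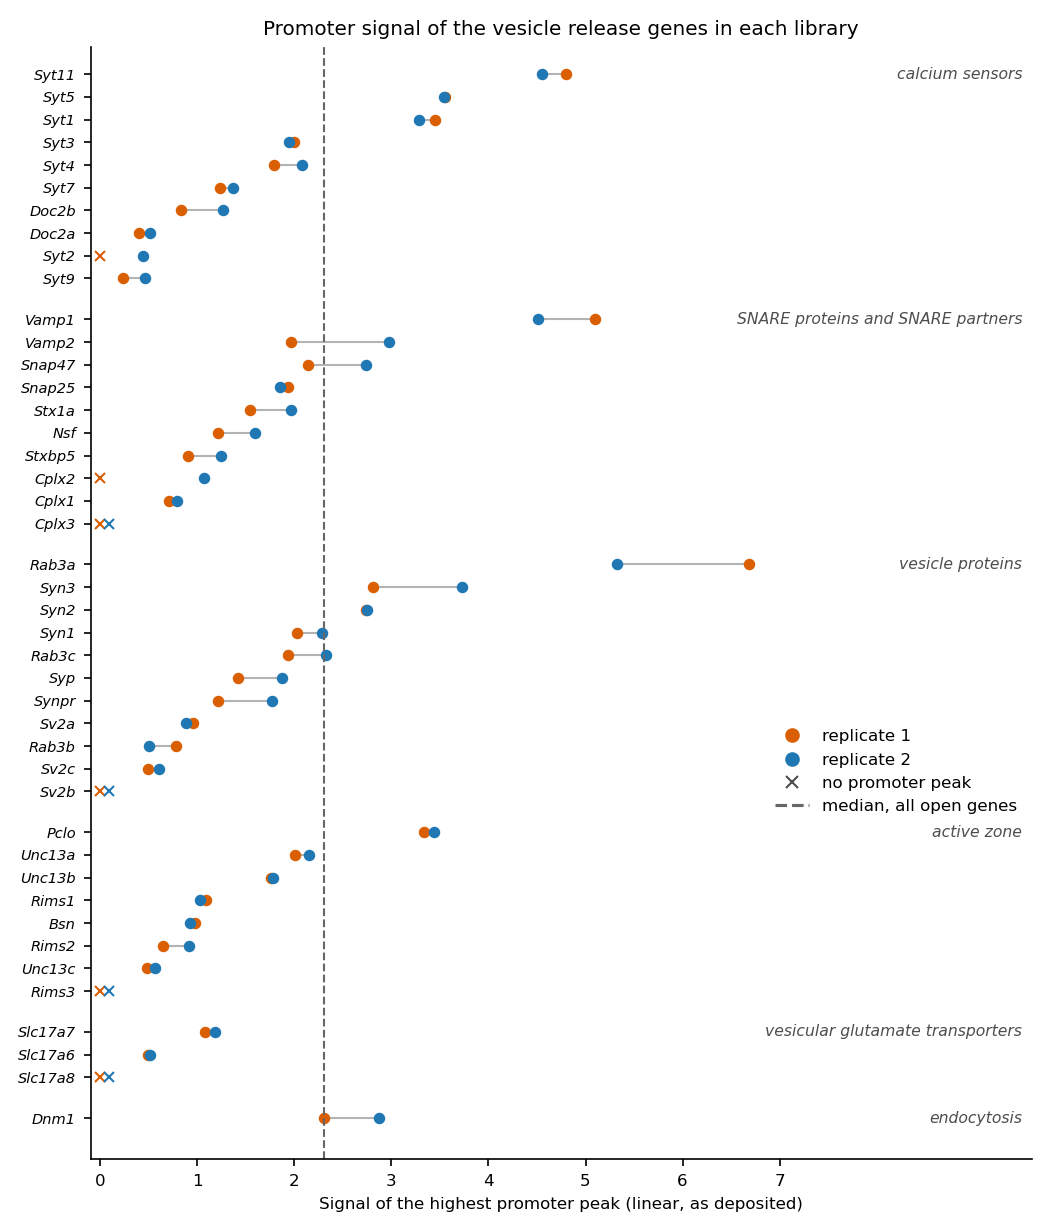
Signal of the highest promoter peak (x axis, linear, as deposited) of each of the 43 vesicle release genes, grouped by role and ordered by mean, in replicate 1 and replicate 2. Crosses mark a library with no promoter peak and the dashed line is the median of all open genes, 2.30. Rab3a, Vamp1 and Syt11 lie furthest to the right, and most genes lie left of the line.

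Among the calcium sensors 9 of 10 genes were open. Syt11, a synaptotagmin that does not bind calcium, had a promoter signal of 4.80 in replicate 1 and 4.55 in replicate 2. Syt5 had 3.56 and 3.54, and Syt1, the sensor of fast synchronous release, had 3.45 and 3.28. These 3 genes lay above all other sensors in both libraries, and the libraries differed by less than the distance to Syt3, which followed with 1.99 and 1.94. This order depends on the starts used. With the gene record's 5′ end alone Syt11, whose peak lies at its second start region, had no promoter peak in both libraries, and the mean of Syt5 was 1.16, against 1.97 for Syt3. Syt4, an atypical synaptotagmin induced by neuronal activity, had 1.79 and 2.08. Syt7, a slow high-affinity sensor, had 1.24 and 1.37. The soluble sensors Doc2b and Doc2a, which act in spontaneous and delayed release, had 0.830 and 1.26, and 0.40 and 0.517. Syt9 was lowest of the open genes, with 0.236 in replicate 1 and 0.461 in replicate 2. Syt2, a fast sensor best known from the hindbrain, spinal cord and some interneurons, had no promoter peak in replicate 1 and one of 0.437 in replicate 2.

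Among the SNARE proteins and their partners 8 of 10 genes were open. Vamp1 had 5.10 in replicate 1 and 4.51 in replicate 2, and Vamp2, the main synaptobrevin of forebrain neurons, had 1.96 and 2.97. Vamp1 was thus the higher of these vesicle SNARE genes in both libraries. Snap47 had 2.14 and 2.74, but its peak also touched the promoter of the neighbouring gene Jmjd4, so its signal cannot be given to Snap47 alone. No other member shared its promoter peak with another protein-coding gene. Snap25 had 1.94 and 1.85, and Stx1a, the syntaxin of the plasma membrane, had 1.54 and 1.96, so their ranges overlapped. Nsf had 1.21 and 1.59, and Stxbp5, the syntaxin-binding protein tomosyn, had 0.903 and 1.25. The complexins were at the low end. Cplx1 had 0.709 and 0.795, Cplx2 had no promoter peak in replicate 1 and one of 1.07 in replicate 2, and Cplx3, a complexin of retinal ribbon synapses, had none in either.

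Among the vesicle proteins 10 of 11 genes were open. Rab3a, the main vesicle GTPase, had 6.69 in replicate 1 and 5.33 in replicate 2, the highest mean of all 43 genes, and lay above 89.3% of all open genes. Its relatives Rab3c, with 1.93 and 2.33, and Rab3b, with 0.782 and 0.501, were lower in both libraries without overlap. The Rab3b values come from different starts. Its first start region had 0.460 in replicate 1 and 0.501 in replicate 2, and its last had 0.782 and 0.485. The synapsins had Syn3 at 2.81 and 3.73, Syn2 at 2.74 and 2.75, and Syn1 at 2.03 and 2.29. Syn1 lay below the other synapsins in each library, and the means of Syn2 and Syn3 differed by less than the libraries of Syn3 did. Syp, the abundant vesicle membrane protein synaptophysin, had 1.42 and 1.88, and Synpr, a relative of synaptophysin known from mossy fibre terminals, had 1.22 and 1.77. Of the SV2 glycoproteins, Sv2a had 0.951 and 0.883, and Sv2c, with 0.497 and 0.604, had the lowest mean of the open vesicle protein genes. Sv2b had no promoter peak.

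Among the active zone genes 7 of 8 were open. Pclo, which encodes Piccolo, had 3.33 in replicate 1 and 3.44 in replicate 2, above every other active zone gene in both. The priming factors of the Munc13 family followed with Unc13a at 2.01 and 2.15 and Unc13b at 1.76 and 1.78, and Unc13c, known from cerebellar granule cells, was lowest with 0.479 and 0.565. Bsn, which encodes Bassoon, the close relative of Piccolo, had 0.982 and 0.922. The RIM scaffolds had 1.09 and 1.03 for Rims1 and 0.642 and 0.914 for Rims2, and Rims3 had no promoter peak. Of the vesicular glutamate transporters, Slc17a7, the VGLUT1 gene of cortical and hippocampal principal cells, had 1.08 and 1.18, and Slc17a6, the VGLUT2 gene, had 0.497 and 0.509. Slc17a8, the VGLUT3 gene, had no promoter peak. The endocytic GTPase gene Dnm1, which encodes the neuronal dynamin, had 2.31 and 2.87.

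Although the vesicle release genes were more often open, their signals were lower at the median. The median over the 37 open members of the mean of both libraries was 1.75, against 2.30 over all open genes, and 11 of the 37 lay above the median of all open genes. The same order held in each library, with medians of 1.54 and 1.78 for the members and 2.07 and 2.34 for all open genes. The highest promoter signal among all genes was 17.8, against 6.01 for Rab3a. Across the 37 open members the log2 promoter signals of the libraries had a Pearson correlation of 0.96, as a description over genes that share both libraries. The signal was higher in replicate 2 at 26 of the 37 members (70.3%) and at 69.5% of all open genes.

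The other genes of vesicle release were given by a list of 71 genes, of which 70 matched. Of these, 59 (84.3%) were open, close to the 86.0% of the members, and 11 had no promoter peak in either library. Napa, the SNAP protein that brings NSF to used SNARE complexes, had the highest signal with 13.3 in replicate 1 and 9.26 in replicate 2. Dnm2, the ubiquitous dynamin, had 9.26 and 10.2, and Itsn1, an endocytic scaffold, had 9.32 and 7.28. All 3 lay above every member. The 11 without a peak included the transporters Slc32a1 for GABA and glycine, Slc18a2 for monoamines and Slc18a3 for acetylcholine. The other monoamine transporter, Slc18a1, named here after its values were seen, was open with 3.70 and 5.30. Whether that peak also touched the promoter of a neighbouring gene was not examined, so the signal cannot be given to Slc18a1 alone. The other genes without a peak were Syt6, Syt8, Syt15, Doc2g, Unc13d, Cplx4, Syngr2 and Syngr3.

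Promoters rich in CpG are open in most tissues, so the members were set beside genes of like CpG content. The ratio of observed to expected CpG at the 5′ end of the gene had a median of 0.649 over the members and 0.552 over all genes. All genes were put in 5 equal groups by this ratio. No member fell in the lowest group. In the next group 5 of 6 members were open against 30.4% of all genes, then 13 of 17 against 71.9%, 7 of 8 against 89.6%, and 12 of 12 against 93.7% in the highest group. Signal did not follow the same course. In the highest group the open members had a median signal of 1.35 and all open genes 2.95, whereas in the lowest group with members the values were 1.97 and 1.25. Across the open members the rank correlation of CpG ratio with promoter signal was -0.08.

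**Figure D2:**
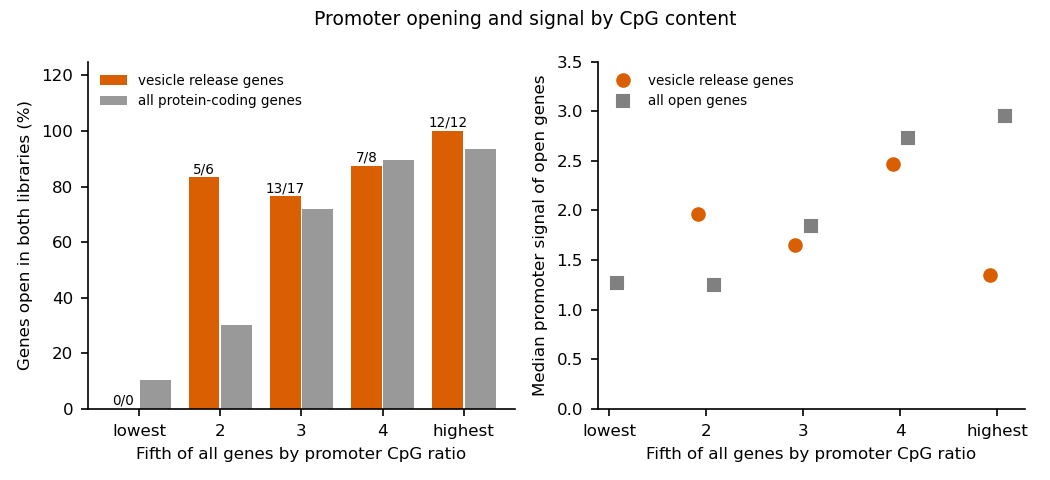
Left, share of vesicle release genes (left bars, with counts) and of all protein-coding genes (right bars) open in both libraries, in 5 equal groups of all genes by promoter CpG ratio. Right, median promoter signal of the open genes of each group. In the highest CpG group 12 of 12 members were open, with a median signal of 1.35 against 2.95 for all open genes.

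The 6 members without a promoter peak in both libraries differed in what lay nearby. Cplx2, the main complexin of hippocampal principal cells, had a peak 1.45 kb from its annotated start in replicate 1, with a signal of 1.70, and one on the start in replicate 2. Its RefSeq start lies 68793 bp from the GENCODE start and had a peak in replicate 2 only, of 0.739. Rims3 had its nearest peak 0.979 kb away in replicate 1 and 0.952 kb away in replicate 2, just beyond the window. With windows of 2000 bp Cplx2 and Rims3 were open and 39 of 43 members passed, against 63.5% of all genes. Cplx3 had 1 peak inside the gene, 3.44 kb from the nearest start, of 1.45 in replicate 1 and 1.72 in replicate 2. Sv2b, a vesicle glycoprotein gene, had no peak nearer than 5.30 kb in replicate 1 and 5.29 kb in replicate 2, yet 10 and 15 peaks lay inside it. Slc17a8 had 1 peak inside the gene, 6.69 kb and 6.76 kb away, of only 0.303 and 0.246. Syt2 had its nearest peak 4.80 kb away in replicate 1 and 0.067 kb away in replicate 2. Bases with a cut rate false discovery rate below 0.05 were listed in the promoter window of 2 of the 4 members with no promoter peak in either library, against 3.07% of all 7983 such genes, and a count of 4 genes limits that share.

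Many members have several annotated starts, which can give different proteins or untranslated ends. Merging the windows that overlap left 124 start regions for the 43 genes, and 45 of them were open in both libraries. The first region from the 5′ end was open at 34 of 43 members, against 54.2% of all genes, and further regions at 11 of 81, against 11.7% of the further regions of all genes. Of the 32 members with more than 1 start region, 5 had more than 1 open. The same share over all genes was not counted, so whether this is many or few is not known. Unc13b had 4 of 9 regions open and Rims2 3 of 7, and Rab3b, Syn2 and Syn3 each had 2.

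Beyond promoters, peaks were counted in the gene record and 20 kb on either side. The members held 451 such peaks in replicate 1 and 552 in replicate 2, with medians of 8 and 10 per gene against 4 and 5 over all genes. The members were longer, with a median gene length of 49.1 kb against 17.4 kb. Per 100 kb the medians were 6.87 and 8.56 for the members and 5.55 and 7.15 for all genes. Among genes of at least 100 kb, the 16 members had medians of 13 and 20 peaks, against 10 and 14 for all 2492 such genes, but per 100 kb they had 4.55 and 6.17 against 4.39 and 6.10. Among genes of 20 to 100 kb the 16 members had 5.5 and 6.5 peaks against 5 and 6. Among genes under 20 kb the 11 members had 5 and 8 against 3 and 4. Across the members the rank correlation of gene length with the number of peaks was 0.56, and with peaks per 100 kb it was -0.62.

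Syn3 had the most peaks, with 44 in each library. Syt1 had 25 in replicate 1 and 42 in replicate 2, and Syn2 had 22 and 21. The next were 3 genes with the same mean of 19.5, namely Rab3a with 29 and 10, Vamp2 with 24 and 15, and Rims2 with 18 and 21. Rab3a and Vamp2 are short genes whose windows are mostly flank, and both held more peaks in replicate 1, whereas the median over members was higher in replicate 2. At Rab3a the peaks covered 8.23 kb in replicate 1 and 2.21 kb in replicate 2, and merging those that overlapped left 22 and 10, so the difference between the libraries remained. Of the 29 Rab3a peaks in replicate 1 only 9 overlapped a replicate 2 peak, and of the 24 Vamp2 peaks 12 did.

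**Figure D3:**
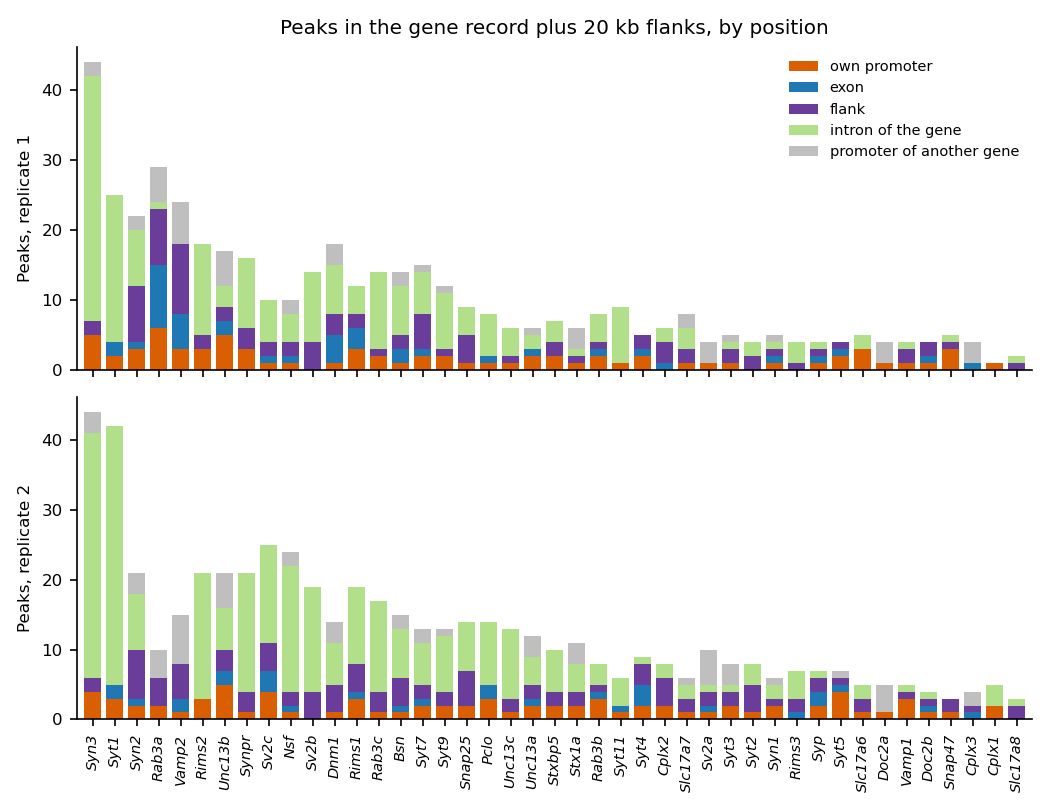
Number of peaks (y axis) in the gene record plus 20 kb flanks of each of the 43 vesicle release genes, coloured by position, in replicate 1 (top) and replicate 2 (bottom), with genes ordered by the mean of both. Introns give most of the peaks of the long genes Syn3, Syt1 and Rims2, while flanks, exons and promoters of other genes give most of those of Rab3a and Vamp2.

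Introns of the member held 45.2% of these peaks in replicate 1 and 52.7% in replicate 2, flanks held 19.3% and 17.9%, the member's own promoter windows 16.2% and 14.1%, promoters of other genes 10.2% and 9.96%, and exons 9.09% and 5.25%. Of the replicate 1 peaks, 77.8% (Wilson 95% interval 73.8 to 81.4, counting error only) overlapped a replicate 2 peak, against 81.6% of all replicate 1 peaks. Of the replicate 2 peaks, 63.4% (59.3 to 67.3) overlapped a replicate 1 peak, against 62.0% of all. The members' intron peaks were shared at 83.3% and 59.1%, and their exon peaks at 48.8% and 62.1%. Of the 41 exon peaks in replicate 1, 9 lay near Rab3a, 5 near Vamp2 and 4 near Dnm1, against 0, 2 and 0 in replicate 2. The shares by position were not counted over all peaks, so whether those of the members are high or low is not known.

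The 5 highest peaks that both libraries shared outside the promoter windows all lay in flanks. The first was 21.6 kb downstream of the 5′ end of Syt3, at chr7:44405601-44405880, in no annotated gene, with 6.45 in replicate 1 and 6.46 in replicate 2. It was above the Syt3 promoter, and in replicate 2 above the Rab3a promoter too. The next, with 4.91 and 4.23, lay 8.66 kb from the start of Vamp2 inside Per1, a circadian clock gene, at chr11:69097001-69097300. Slc17a7 had a peak 1.60 kb upstream of its 5′ end, at chr7:45162201-45162500, with 2.94 and 3.78, which is above its promoter signal of 1.08 and 1.18 in both libraries. That promoter peak lies at the second of its 2 start regions, 5764 bp from the 5′ end in replicate 1 and 5748 bp in replicate 2, and the first region had no peak in either library. Bsn had one at -10.9 kb from its 5′ end, at chr9:108201181-108201480, with 3.66 and 2.88, against 0.982 and 0.922 at its promoter. Stxbp5 had one 1.04 kb upstream, at chr10:9902001-9902240, with 3.27 and 2.97, inside the lincRNA gene Gm46210, against 0.903 and 1.25 at its promoter. At all 5 genes the shared flank peak was higher than the promoter peak in both libraries. Because these peaks were picked as the highest outside the promoter windows, that order is partly fixed by the choice. Which gene any of these peaks acts on was not measured.

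The peaks near the members held 1043 footprints in replicate 1 and 1069 in replicate 2, of which 46.7% and 46.9% overlapped a footprint of the other library. They took up 13.6% and 11.2% of the peak bases, against 13.1% and 10.3% for all peaks. In the members' highest promoter peaks there were 155 and 137 footprints, and 56.1% and 67.2% of these overlapped one of the other library, against 63.5% and 70.3% for all open genes. The highest promoter peaks of the 2 libraries overlapped at 34 of the 37 open members. At Rab3b, Doc2a and Syt7 they lay apart. In the 34 overlapping peaks, 984 of 7634 bases (12.9%) were in footprints of both libraries, and 28 of the 34 had at least 1 such base. The overlap of highest peaks and these base counts were not taken over all open genes, so whether they are high or low is not known.

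**Figure D4:**
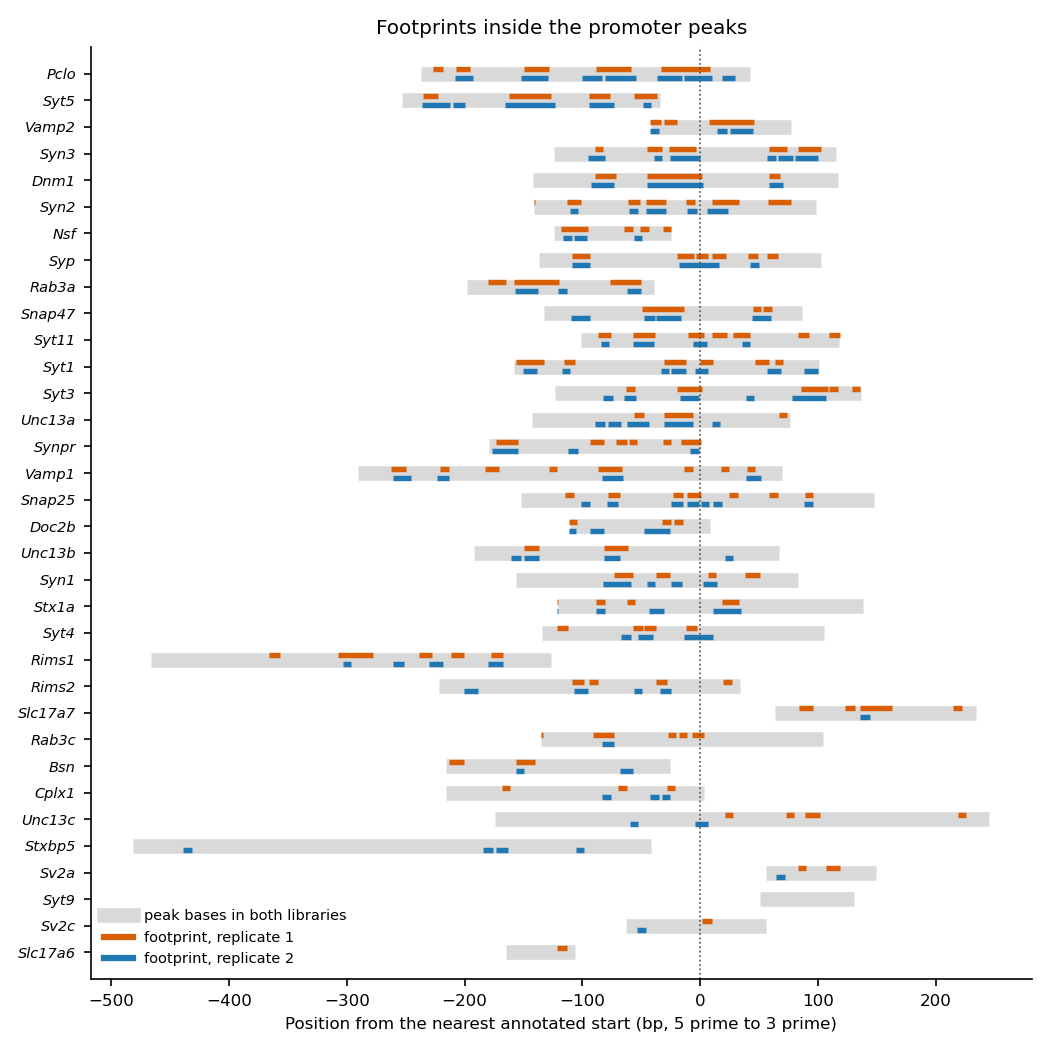
Footprints of replicate 1 (upper dashes) and replicate 2 (lower dashes) inside the promoter peak bases common to both libraries (grey) for 34 open vesicle release genes, by distance from the nearest annotated start (x axis, bp). Genes are ordered by the share of bases in footprints of both libraries, from Pclo with 35.4% to genes with none.

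The share of bases in both libraries' footprints was 35.4% at Pclo, 33.6% at Syt5, 28.3% at Vamp2, 27.9% at Syn3 and 27.7% at Dnm1. No base lay in footprints of both at 6 members, Stxbp5, Unc13c, Sv2a, Sv2c, Syt9 and Slc17a6. These 6 had mean promoter signals from 0.349 at Syt9 to 1.08 at Stxbp5, below the members' median of 1.75. The peak stretch common to both libraries was 60 bases at Slc17a6, 80 at Syt9, 94 at Sv2a and 120 at Sv2c, but 420 at Unc13c and 440 at Stxbp5. Whether weak signal or a short common stretch limited the finding of footprints was not tested. Pclo had 6 runs of bases in footprints of both libraries. Among them were stretches of G and C close to the start that are visible in the sequence above. Dnm1 had a single run of 47 bases across its first start. This run holds the letters CGCC, any base, TCTAG, a core of the element bound by the insulator protein CTCF. These letters were chosen after the run was seen, and 1 of 43 members and 0.583% of all genes had them within 250 bp before to 50 bp after any start, on either strand. Syt5 had a run of 36 bases, in which GTTGCC, any 2 bases and GGCAAC form the inverted repeat of an X-box, the element of RFX factors. Those letters were also chosen after the run was seen, and stood in such windows of 1 member and of 0.160% of all genes. The RFX letters GTTGCNATG, which were not chosen from the run, stood in no member's windows, against 2.96% of all genes. The run's X-box with its margins is at chr7:4546703-4546732, minus strand, with footprint bases in capitals, and is shown for its inverted repeat.
Syt5: tccCTCCCGTTGCCTTGGCAACAGGCTCGT

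The cyclic AMP response element TGACGTCA, bound by CREB, was found in the promoter windows of 2 of 43 members (4.65%), against 3.5% of all genes. Both matches, of which 1 is at Syn1, overlapped footprints of both libraries, as did 86.7% of all such matches in open promoter peaks. In the Syn1 sequence all 8 letters are in capitals. GGGCGGGG, a site of SP and KLF factors, was in the promoter windows of 25 members (58.1%), against 31.5% of all genes. Among open genes it was in 22 members (59.5%), against 44.5%. Of its 16 matches in the members' promoter peaks, 7 overlapped footprints of both libraries, against 71.5% of the matches over all open genes. CGCNTGCG, a site of NRF1, was in 14 members (32.6%), against 16.0% of all genes, and among open genes in 13 members (35.1%), against 24.5%. Of its peak matches 3 of 8 overlapped footprints of both, against 66.2%. CCGGAAGT, a site of ETS factors, was in 1 member, Syt5, against 7.11% of all genes. The E-box CAGCTG had 8 matches in the members' promoter peaks and none overlapped footprints of both, against 16.0% over all open genes. These motifs were counted on both strands, and SP and NRF1 letters are rich in CpG or GC. A gene counted when the window of any of its starts held a match, and the number of starts was not matched between members and other genes. A match shows neither binding nor its lack. Open members also had a lower median promoter signal than all open genes, 1.75 against 2.30. Its bearing on these footprint shares was not tested.

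Near the 43 members there were 33 REST matches at 22 genes, and 3 lay in a peak of both libraries. These were at Syn1, 137 bp from a start in its promoter peak of 2.03 in replicate 1 and 2.29 in replicate 2, at Syp, 24 bp from a start in its peak of 1.42 and 1.88, and at Slc17a6, 135 bp from a start in its peak of 0.497 and 0.509. Thus 3 of 43 members (6.98%) had a match in a peak of both libraries, against 0.994% of all genes. The share of all genes with any match was not counted. The members' windows were longer, with a median gene length of 49.1 kb against 17.4 kb, and the bearing of this on the gene shares was not tested. Counted by match, 9.09% of those near members lay in a peak of both libraries, against 2.88% near all genes. At Syp all 15 bases of the match, its gap included, lay in the replicate 1 peak but only 2 in the replicate 2 peak, which ends there. The Syp match was exact, and those at Syn1 and Slc17a6 had 1 mismatch. None of the 3 overlapped a footprint of both libraries, which 31 of 171 matches in shared peaks across the genome (18.1%) did. Snap25 carried a pair of exact matches 819 bp and 869 bp past a start, inside a peak of 0.733 in replicate 1 and in no peak of replicate 2. The remaining matches lay in no peak of either library.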

How the data were processed

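DNase-seq of 2 hippocampus libraries was analysed from the authors' deposited peak lists, footprint lists and base lists, which per the labels use mm10. The tools for alignment, peak calling and footprinting, and their versions, were not given in the sources used here. The deposited peak height is a signal of unstated scaling, used without a count test. The deposited base lists hold q-values (false discovery rates) below 0.05, and the deposited footprints a p-value type threshold of 0.01 in every row. The larger peak list of each library was used. Genes, starts and exons came from GENCODE M21, and sequences from the GRCm38.p6 reference. Overlaps of at least 1 bp were computed with pandas 2.3.3 and numpy 2.4.6, Wilson intervals with scipy 1.17.1, and the code was tested on simulated data.

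The members, role groups and lists were chosen with earlier results of these data known, so no test or p-value is given over them. Named genes were, by role group, the 2 highest and the lowest promoter signal, every gene without a promoter peak in both libraries, the 5 with most peaks, the 5 highest shared peaks outside promoters, and every REST match in a peak. Of other vesicle release genes the 3 highest and all without a peak were named. Other members are given with their values for completeness. Vamp7 was not matched by symbol. The sequence of 1 promoter is not reported here. Alternatives were the smaller peak list, other windows and flanks, each library left out, signal over the library median, reciprocal overlap, the 50000 highest peaks and other mismatch limits.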

Additional observations from a re-analysis of the deposited data

How the results depend on the processing

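With 1 group, no test separates the libraries, and leaving out a library leaves 1. No paired analysis was possible because the libraries form 1 group. The count of open members was 37 and ranged from 32 to 39 over the alternatives. It was 32 with the smaller peak list (53.3% of all genes), which lost Bsn, Doc2a, Slc17a6, Sv2a and Sv2c. It was also 32 with the gene record's 5′ end alone (53.3% of all genes), which lost Syt11, Slc17a7, Doc2a, Snap47 and Rab3c. Without replicate 1 the open members numbered 39 and the open other vesicle release genes 59, against 62.4% of all genes. Without replicate 2 the counts were 37 and 59, against 60.4% of all genes. The members' median promoter signal, 1.75, became 1.57 with the 5′ end alone and 2.97 with signal divided by the library median, and was 1.54 to 1.78 without either library in turn. Under each of these the median of all open genes was higher. The median number of neighbourhood peaks, 8.5, was 5.5 with the smaller list and with no flanks, 15 with 50 kb flanks and 4.5 with the 50000 highest peaks, and above that of all genes each time. A reciprocal overlap of 0.5 put shared peaks at 62.7% of replicate 1 and 51.1% of replicate 2 peaks. With no REST mismatch 1 member (2.33%) had a match in a peak of both libraries, against 0.237% of all genes, and with at most 2 mismatches 7 members (16.3%), against 6.56%. The 2000 bp window and 5′ end settings moved the signal of 6 and 1 members by more than the spread of the libraries, among them Slc17a7 (3.36) and Stxbp5 (3.12) with the first and Syt5 (1.16) with the second.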
